A study of Mus musculus with 4 samples.

Results

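The genes of presynaptic vesicle release and recycling were followed in wild-type mice, in the whole hippocampus of the left side. The list held 41 genes, chosen by name, and every probe set was taken that the array's probe table assigns to exactly 1 of these symbols. This gave 104 probe sets for 40 genes, of 18193 genes with a probe set of their own; Slc17a8, a vesicular glutamate transporter, was not analysed here. The 4 wild-type samples carry the numbers 11, 13, 15 and 17; the labels call them biological replicates, so they form 1 group, and each was run on 1 Affymetrix expression array. The sources used here give no strain, sex or age and do not say whether each sample is 1 animal, and with a single group no conditions were compared. A probe set is a group of short probes that reads 1 stretch of a transcript, and its value is a log2 intensity, so that a difference of 1 is a doubling of signal. Unless a probe set is named, a gene is given by its probe set with the highest mean, called its top probe set. Levels are means ± SD (n = 4), and the number of arrays limits their precision.

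Neurons release transmitter from small vesicles that dock at the active zone, a protein scaffold on the inner face of the axon terminal. SNARE proteins of the vesicle and of the plasma membrane zip together to drive fusion, synaptotagmins sense the calcium that triggers it, and NSF with its SNAP adaptors takes the spent SNARE complexes apart. Vesicle membrane is then retrieved by endocytosis, which needs clathrin adaptors, the membrane-cutting enzyme dynamin and the lipid phosphatase synaptojanin. In the hippocampus most terminals belong to excitatory neurons, whose vesicles are loaded with glutamate.

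Most of the machinery was detected. A level counted as above background when it exceeded 7.13, the 95th percentile of 19 measured genes typical of other organs, such as liver, testis and skin. Of the 40 genes, 35 lay above that limit, or 87.5%, against 35.3% of all 18193 genes. By role these were 9 of 9 SNARE proteins and regulators, 5 of 6 synaptotagmins, 9 of 12 vesicle proteins, 8 of 9 active zone proteins and 4 of 4 endocytosis proteins. Erc1 was the nearest gene inside the limit at 7.19 ± 0.11, and Syn3 the nearest outside it at 6.37 ± 0.094. In whole tissue, fewer cells of a type and less RNA per cell cannot be told apart. Probe sets also differ in affinity, so levels of different genes are not ranked. Samples 15 and 17 stood apart in the array's own controls, where the 5′ ends of Gapdh and beta-actin gave less signal. With samples 11 and 13 alone the count was again 35 of 40, against 37.1% of all genes. Of the markers of the labelled tissue, 5 of 5 neuronal, 5 of 5 CA1, 4 of 5 dentate granule cell and 2 of 4 CA3 markers lay above the limit, with Grik4 and Iyd of CA3 and Prox1 of the dentate gyrus under it.

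**Figure D1:**
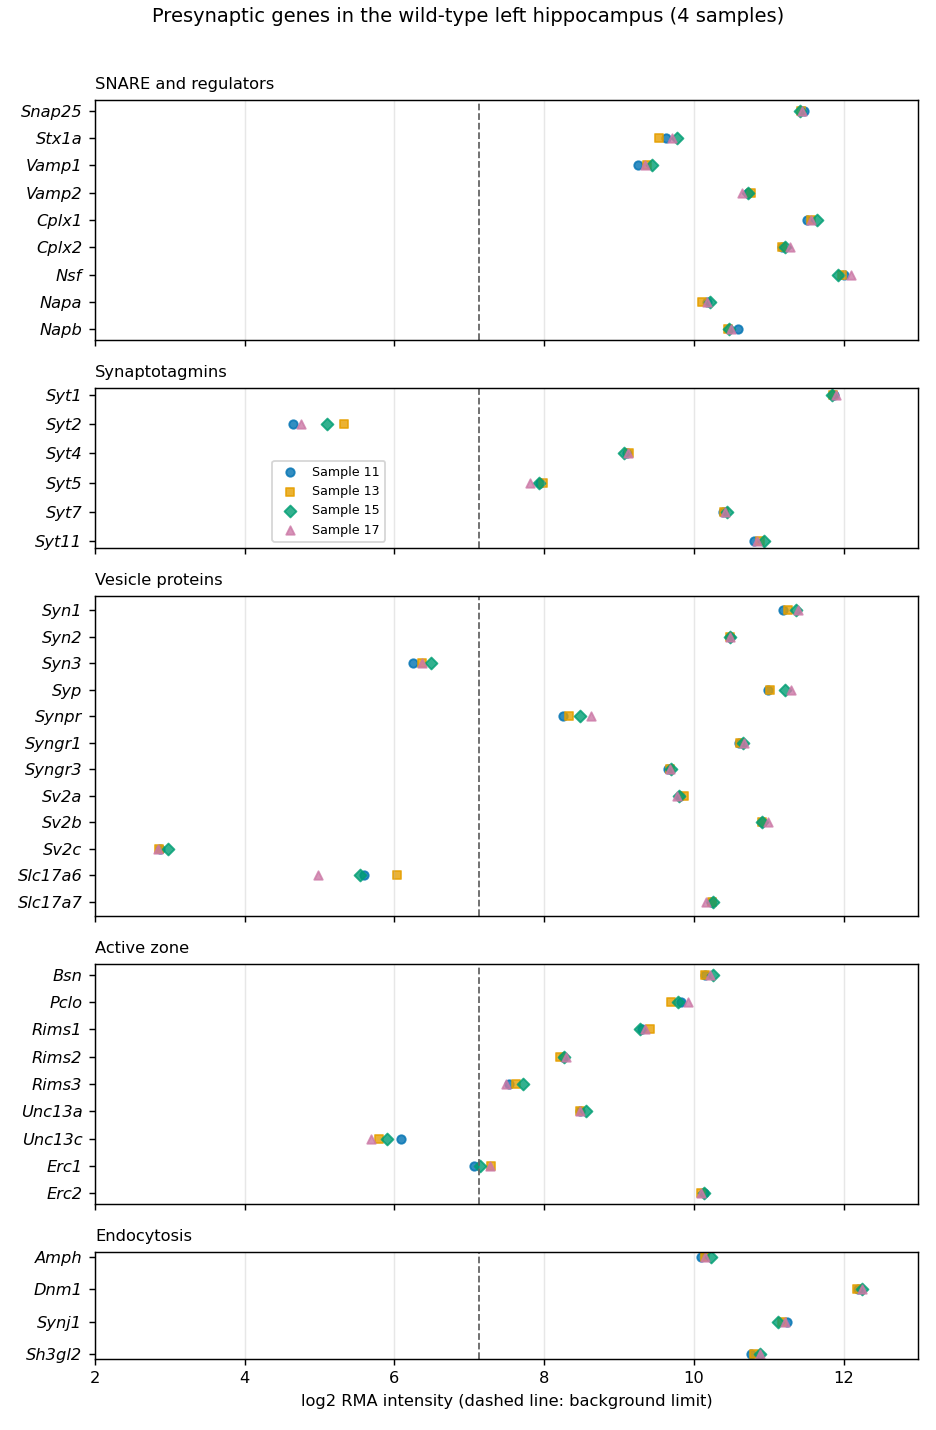
Log2 RMA intensity (horizontal axis) of the top probe set of 40 presynaptic genes, by role, with 1 symbol for each of the 4 samples and the background limit of 7.13 as a dashed line. For most of the 35 genes above the limit the 4 symbols overlap, and Syt2, Syn3, Sv2c, Slc17a6 and Unc13c lie left of it.

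The SNARE core of fusion was detected with all its listed parts. Snap25, the plasma membrane SNARE that contributes 2 helices to the complex, had levels of 11.48, 11.43, 11.41 and 11.44 in samples 11, 13, 15 and 17. Its samples lay within 1.05-fold of each other. Stx1a, the syntaxin that joins it in the plasma membrane, stood at 9.63, 9.54, 9.77 and 9.71 in samples 11, 13, 15 and 17, highest in sample 15 and lowest in sample 13. Among the vesicle SNAREs, Vamp2, the main synaptobrevin of forebrain terminals, averaged 10.72 ± 0.048 and its relative Vamp1 9.35 ± 0.072. The complexins Cplx1 and Cplx2, which clamp and then promote the partly zipped complex, averaged 11.57 ± 0.059 and 11.21 ± 0.055. Nsf, the ATPase that takes SNARE complexes apart, averaged 12.00 ± 0.076, and its adaptors Napa and Napb 10.17 ± 0.043 and 10.50 ± 0.059. The SD of these 9 genes ran from 0.027 for Snap25 to 0.10 for Stx1a, with a median of 0.059, against 0.081 over all 6414 genes above the limit. The genes compared were not matched for level.

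Of the listed synaptotagmins, 5 were detected, not all of them calcium sensors. Syt1, the sensor of fast synchronous release in forebrain, had levels of 11.87, 11.85, 11.85 and 11.90 in samples 11, 13, 15 and 17, a 1.03-fold range. Syt2, its close relative in fast-spiking interneurons and in hindbrain and spinal cord, lay under the limit in each sample, at 4.65, 5.33, 5.10 and 4.75 in samples 11, 13, 15 and 17. A probe set may also read its transcript poorly, so such a level is no proof of absence. The other probe sets of Syt2 averaged 3.85 ± 0.19 and 3.55 ± 0.044. Syt7, a slow, high-affinity sensor of asynchronous release and facilitation, averaged 10.42 ± 0.022, and Syt5 7.92 ± 0.075. Syt4 and Syt11, which lack a residue needed for calcium binding in one of their C2 domains, averaged 9.11 ± 0.028 and 10.87 ± 0.057. The median SD of the 5 detected synaptotagmins was 0.028.

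Proteins of the vesicle membrane and surface included Synpr and Syp, the genes with the widest ranges among the detected top probe sets. Synpr, synaptoporin, a synaptophysin relative of mossy fibre terminals, had levels of 8.25, 8.33, 8.47 and 8.62 in samples 11, 13, 15 and 17, a 1.30-fold range. Syp, synaptophysin, a common histological marker of terminals, had levels of 10.99, 11.02, 11.22 and 11.30 in samples 11, 13, 15 and 17, a 1.24-fold range. Syn1, a synapsin that tethers vesicles to one another and to actin, stood at 11.19, 11.26, 11.36 and 11.39 in samples 11, 13, 15 and 17, a 1.15-fold range. All 3 were lowest in sample 11 and highest in sample 17. The 9 detected vesicle genes had a median SD of 0.041, and 5 of them were lowest in sample 11 alone and 5 highest in sample 17. Over all genes above the limit, 48.1% were lowest in sample 11 and 38.6% highest in sample 17, so this order was also common on the arrays at large. The other vesicle genes were steadier: Syngr1 and Syngr3, the synaptogyrins, averaged 10.64 ± 0.033 and 9.67 ± 0.018, and the glycoproteins Sv2a and Sv2b 9.82 ± 0.042 and 10.93 ± 0.036. Syn2, a further synapsin, had the same deposited value of 10.48 in all 4 samples, and equal values of this kind lower an SD. Sv2c, the form of basal ganglia and brainstem, averaged 2.89 ± 0.062 by its only probe set, and Syn3, prominent in immature neurons, averaged 6.37 ± 0.094.

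The transporters that fill vesicles with glutamate fell on different sides of the limit. Slc17a7, VGLUT1, the transporter of hippocampal pyramidal and granule cells, had levels of 10.23, 10.24, 10.25 and 10.16 in samples 11, 13, 15 and 17. Its samples stayed within 1.07-fold of each other. Slc17a6, VGLUT2, which marks thalamic and other subcortical excitatory neurons, had levels of 5.59, 6.04, 5.54 and 4.98 in samples 11, 13, 15 and 17. Its second probe set stood at 5.54, 5.69, 5.54 and 4.53 in the same samples, and both probe sets were highest in sample 13 and lowest in sample 17. Those ranges were 2.08-fold and 2.23-fold, at levels below the limit. Of the thalamic markers Tcf7l2, Prkcd, Ntng1, Rora and Plekhg1, Ntng1 and Rora were above the limit. The levels of Ntng1 were 7.76, 7.64, 7.51 and 7.66 in samples 11, 13, 15 and 17. Those of Rora were 7.79, 7.94, 7.84 and 8.04 in the same order, and neither gene was highest in sample 13. Under the limit, Prkcd and Plekhg1 were highest in sample 15, with Prkcd lowest in sample 13 and Plekhg1 in sample 11. Tcf7l2 was equal in samples 11, 13 and 15 and lowest in sample 17. Ttr, the transthyretin of choroid plexus and the marker with the widest spread of all those measured, was highest in sample 13 and lowest in sample 17, at 7.36, 9.84, 6.86 and 6.54 in samples 11, 13, 15 and 17. The other choroid plexus markers, Kl and Folr1, averaged 5.41 and 3.79, under the limit, and had the same highest and lowest samples. The part of tissue taken along from outside the hippocampus in the Slc17a6 values was not tested. Slc32a1, the vesicular transporter for GABA and glycine, averaged 7.96 ± 0.11.

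The promoters of these transporter genes are shown because the glutamate transporters split at the limit, and those of Syn1, Sh3gl2, Napa and Unc13a because they held the rarer motifs searched. Each window runs 5′ to 3′ from 250 bases before to 50 after the transcription start in RefSeq, build GRCm38.p6. Capitals mark the cAMP response element TGACGTCA, the GC box GGGCGG, and the stretches TCAGCACC and GGACAGCG of RE1, the element bound by the neuronal repressor REST, each on either strand.
Slc17a7, chr7:45163671-45163970, plus strand: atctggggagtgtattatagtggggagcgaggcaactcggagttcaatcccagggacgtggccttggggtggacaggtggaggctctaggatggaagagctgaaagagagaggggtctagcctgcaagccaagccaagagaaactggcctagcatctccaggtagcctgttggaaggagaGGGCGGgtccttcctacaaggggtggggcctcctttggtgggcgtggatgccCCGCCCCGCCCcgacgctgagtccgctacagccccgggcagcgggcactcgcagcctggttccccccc
Slc17a6, chr7:51621580-51621879, plus strand: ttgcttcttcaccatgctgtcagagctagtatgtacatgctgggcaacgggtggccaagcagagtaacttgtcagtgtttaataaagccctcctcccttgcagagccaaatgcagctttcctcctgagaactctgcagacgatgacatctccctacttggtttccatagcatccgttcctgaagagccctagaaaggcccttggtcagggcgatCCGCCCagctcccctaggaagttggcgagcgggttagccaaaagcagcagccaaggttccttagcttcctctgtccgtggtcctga
Syn1, chrX:20920869-20921168, minus strand: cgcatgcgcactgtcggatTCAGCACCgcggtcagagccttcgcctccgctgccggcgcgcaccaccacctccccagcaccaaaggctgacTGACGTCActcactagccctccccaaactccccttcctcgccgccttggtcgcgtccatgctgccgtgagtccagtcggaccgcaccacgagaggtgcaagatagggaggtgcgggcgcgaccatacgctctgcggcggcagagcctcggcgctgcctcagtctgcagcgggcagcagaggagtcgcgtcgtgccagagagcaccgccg
Sh3gl2, chr4:85205206-85205505, plus strand: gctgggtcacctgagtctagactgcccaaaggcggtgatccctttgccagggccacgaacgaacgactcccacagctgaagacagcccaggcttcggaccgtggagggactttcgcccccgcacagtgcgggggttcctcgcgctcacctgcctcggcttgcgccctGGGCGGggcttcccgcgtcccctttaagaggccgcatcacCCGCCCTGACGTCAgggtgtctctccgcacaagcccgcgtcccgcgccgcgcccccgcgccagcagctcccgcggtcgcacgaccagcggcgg
Napa, chr7:16098330-16098629, plus strand: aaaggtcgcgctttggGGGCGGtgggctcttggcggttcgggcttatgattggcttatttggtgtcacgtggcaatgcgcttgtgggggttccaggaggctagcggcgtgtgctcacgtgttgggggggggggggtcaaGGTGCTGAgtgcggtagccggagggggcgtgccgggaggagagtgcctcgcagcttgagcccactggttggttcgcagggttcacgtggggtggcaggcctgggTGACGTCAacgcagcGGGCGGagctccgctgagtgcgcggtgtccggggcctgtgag
Unc13a, chr8:71671708-71672007, minus strand: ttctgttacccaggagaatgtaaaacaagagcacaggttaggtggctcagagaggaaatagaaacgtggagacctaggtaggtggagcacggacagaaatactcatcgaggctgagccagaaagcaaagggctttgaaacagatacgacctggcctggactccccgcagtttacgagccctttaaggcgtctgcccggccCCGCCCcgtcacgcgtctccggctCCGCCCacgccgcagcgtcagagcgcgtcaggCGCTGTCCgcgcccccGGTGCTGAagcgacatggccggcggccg
Windows were found for 33 of the 41 listed genes, 43 windows in all. A GC box was in 27 of those 43 windows, or 62.8%, against 35.7% of 32851 windows of all genes. It occurred in 22 of 28 detected genes with a window and in 4 of 4 genes under the limit, among them both Slc17a7 and Slc17a6. Slc17a6 has 2 windows in RefSeq, and the one not printed, with 43% G and C, holds no GC box. In the Slc17a7 window, 2 of the 3 GC boxes overlap by a base. The cAMP response element was in 3 windows, or 6.98%, against 1.79%: it begins 159 bases before the start in Syn1, 37 in Sh3gl2, where it directly follows a GC box, and 7 in Napa. Of the RE1 stretches, GGACAGCG was in the Unc13a window, or 2.33% against 1.26% of all windows, and TCAGCACC was in Syn1, Unc13a and Napa, or 6.98% against 1.65%. The TATA box TATAAA was in 2 windows, both of Sv2b, or 4.65% against 13.6%. The windows of listed genes had a median of 62.3% G and C, against 52.7% for all windows, and a GC box is itself made of G and C. These matches describe the letters in the windows, and no binding was measured.

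The active zone and priming proteins were detected except for 1. Bsn and Pclo, bassoon and piccolo, the giant scaffolds that organise the release site, averaged 10.19 ± 0.054 and 9.81 ± 0.095. Rims1, Rims2 and Rims3, of the RIM family that brings calcium channels and vesicles together, averaged 9.34 ± 0.057, 8.25 ± 0.036 and 7.59 ± 0.1. Unc13a, Munc13-1, which opens syntaxin and primes vesicles for fusion, stood at 8.48, 8.48, 8.56 and 8.48 in samples 11, 13, 15 and 17. It was the same in 3 samples and slightly higher in sample 15. Its relative Unc13c, Munc13-3, best known from cerebellar granule cells, lay under the limit at 6.09, 5.79, 5.91 and 5.69 in samples 11, 13, 15 and 17. Erc2, a scaffold that binds RIM and bassoon, averaged 10.12 ± 0.018, and its widely expressed relative Erc1 had levels of 7.06, 7.29, 7.15 and 7.28 in samples 11, 13, 15 and 17, with sample 11 alone under the limit. The median SD of the 8 detected genes was 0.056.

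All 4 endocytosis genes were detected. Dnm1, dynamin, the GTPase that cuts the neck of a budding vesicle, had levels of 12.20, 12.18, 12.25 and 12.24 in samples 11, 13, 15 and 17, a 1.05-fold range. Synj1, synaptojanin, a lipid phosphatase that helps vesicles shed their clathrin coats, averaged 11.19 ± 0.051. Sh3gl2, endophilin A1, which bends membrane and recruits dynamin and synaptojanin, averaged 10.83 ± 0.063, and Amph, amphiphysin, a dynamin-binding protein, averaged 10.15 ± 0.058. Their SDs ran from 0.036 to 0.063.

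The other probe sets of several of these genes behaved unlike the top ones. Of 26 further probe sets above the limit, in 15 genes, 4 had an SD above 0.3, a threshold set after the values were seen. They made up 6.56% of the 61 listed probe sets above the limit, against 2.78% of 9742 probe sets above it on the whole array. Among probe sets that were not the top one of their gene, the shares were 15.4% of 26 and 6.55% of 2475. None of the 35 top probe sets had so large an SD, against 1.11% of the 6414 top probe sets of all genes. The probe set 1449264_at of Syt11 had levels of 9.39, 8.88, 7.51 and 7.11 in samples 11, 13, 15 and 17, a 4.84-fold range. The other 4 probe sets of Syt11 had SDs of 0.025 to 0.057, and all 4 stayed between 10.64 and 10.94. For Sh3gl2, 1418792_at stood at 9.25, 9.10, 8.31 and 8.06 in samples 11, 13, 15 and 17, against 10.76, 10.80, 10.89 and 10.89 for its top probe set. Cplx1 showed the same split, with 1417747_at at 7.76, 7.63, 7.08 and 6.61 in samples 11, 13, 15 and 17 and 1417746_at at 11.23, 11.33, 11.39 and 11.39. In Syn2, 1449030_at had levels of 9.33, 9.10, 8.62 and 8.51 in samples 11, 13, 15 and 17. All 4 of these probe sets were highest in sample 11 and lowest in sample 17, with samples 15 and 17 below samples 11 and 13. This order was common on the array: of 271 probe sets with so large an SD, 188, or 69.4%, had samples 15 and 17 below samples 11 and 13, and among those that were not the top one of their gene 140 of 162 did.

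Probe sets of lower signal or smaller spread followed the same order in part. Dnm1's second probe set, 1427754_a_at, averaged under the limit and had levels of 7.51, 7.57, 5.75 and 5.26 in samples 11, 13, 15 and 17. It crossed the limit, above it in samples 11 and 13 and below it in samples 15 and 17. The second probe set of Syngr3, 1448216_at, did likewise at 7.17, 7.19, 6.22 and 5.38 in samples 11, 13, 15 and 17. For Nsf, 1422455_s_at stood at 10.68, 10.50, 10.27 and 10.11 in samples 11, 13, 15 and 17, and for Cplx2, 1421477_at at 10.35, 10.23, 10.24 and 9.91 and 1436383_at at 10.59, 10.58, 10.40 and 10.26 in that order. Those 3 were highest in sample 11 and lowest in sample 17. In Rims1, 1438305_at had 8.71, 8.58, 8.49 and 8.29, again with sample 17 lowest. The pattern was not general: both probe sets of Syt4, 3 of Synj1 and 3 of Syt7 above the limit had SDs of at most 0.064. Of Syt1, whose other probe sets averaged under the limit, 1431191_a_at followed the order at 7.25, 6.91, 6.85 and 6.38 in samples 11, 13, 15 and 17, while another went its own way, as did one of Napa. In Syt1, 1438282_at had levels of 7.15, 6.48, 6.55 and 7.22 in samples 11, 13, 15 and 17, high in samples 11 and 17, and in Napa, 1416192_at had 7.65, 8.02, 7.93 and 8.07, lowest in sample 11.

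**Figure D2:**
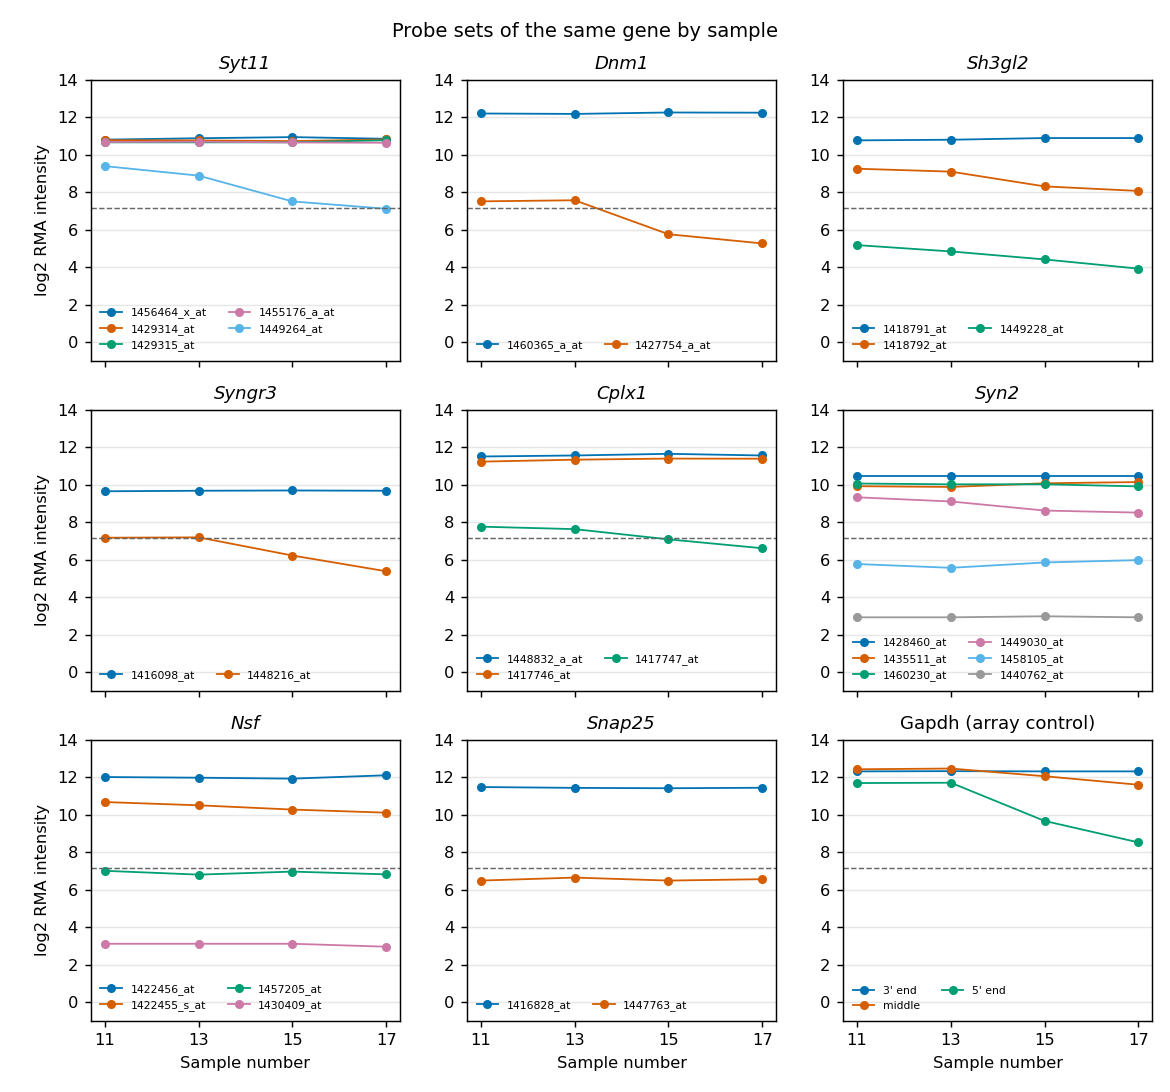
Log2 RMA intensity of every probe set of 8 presynaptic genes and of the Gapdh array control by sample number, with lines that only join the values of 1 probe set and the background limit of 7.13 dashed. The top probe sets run level, while 1449264_at of Syt11, 1427754_a_at of Dnm1, 1418792_at of Sh3gl2 and 1448216_at of Syngr3 are lower in samples 15 and 17, as is the 5′ end of Gapdh.

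The array's own controls moved in the same samples. Gapdh, a glycolytic enzyme read at several positions of its transcript, had a 5′ signal of 11.69, 11.71, 9.67 and 8.52 in samples 11, 13, 15 and 17, while its 3′ signal stayed between 12.31 and 12.32. Its 3′ minus 5′ difference was thus 0.62, 0.62, 2.64 and 3.79, and that of beta-actin was 1.10, 1.25, 1.93 and 2.33. In beta-actin the 3′ signal was not level, at 11.48, 11.17, 10.99 and 10.73 in samples 11, 13, 15 and 17. The part of transcript integrity or labelling length in the presynaptic values was not tested, and the places of the probe sets along their transcripts were not analysed here. Taking the top probe set minus each of the 26 others, the difference was largest in sample 17 for 13, against 35.6% of 2475 such probe sets of all genes. It was smallest in sample 11 for 13, against 30.8%. For Syt11 the difference to 1449264_at was 1.41, 1.995, 3.43 and 3.74 in samples 11, 13, 15 and 17, and for Sh3gl2 that to 1418792_at was 1.51, 1.70, 2.58 and 2.82. The median span of these differences over the samples was 0.19 for the listed genes and 0.21 for all genes.

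**Figure D3:**
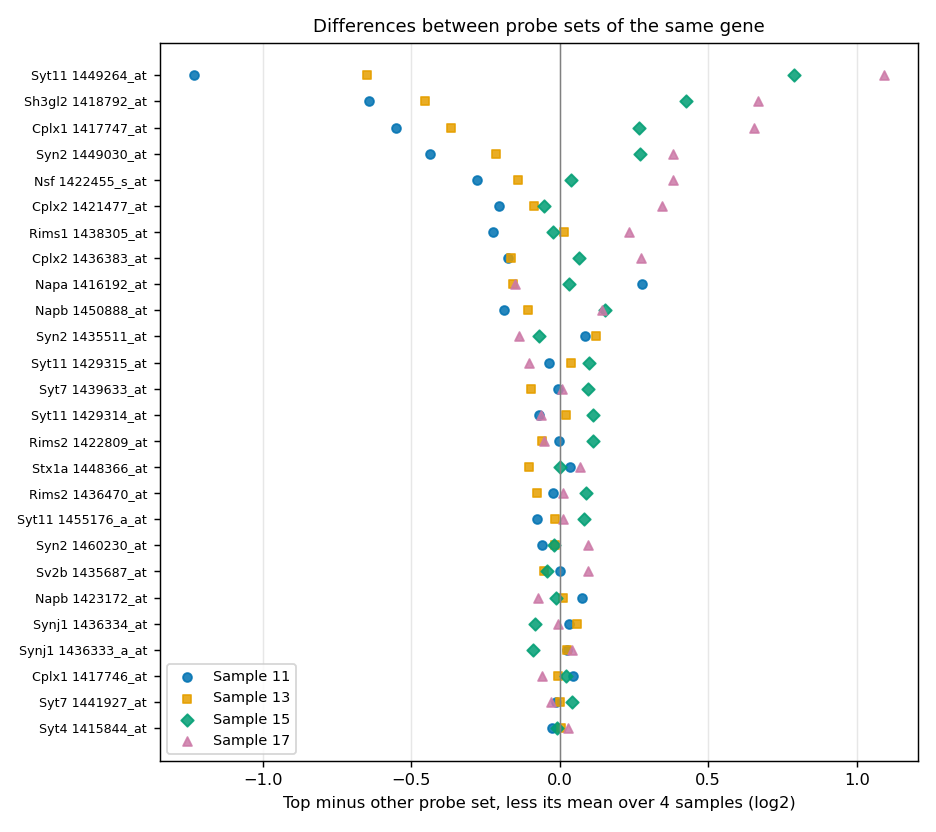
Difference between the top probe set of a gene and each of its 26 other probe sets above the limit, in log2 units and centred on its own mean over the 4 samples, sorted by span. Syt11, Sh3gl2, Cplx1 and Syn2 at the top spread widest, with sample 11 leftmost and sample 17 rightmost.

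Single probe sets were tested for a spread larger than usual at their level. With limma, 0 of the 61 listed probe sets above the limit had an adjusted p under 0.05, against 0% of 9742 on the whole array, where the lowest adjusted p was 0.894. Before adjustment 5 of the 61 and 303 of the 9742 had a p under 0.05. Those 5 were the probe sets named above of Syt11 (limma unadjusted p 0.00256), Sh3gl2, Cplx1, Syn2 and Nsf, and none was a top probe set. A count of 0 does not show that the samples were alike.

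Whether the probe sets of a gene differed together between samples was tested for genes with at least 2 of them above the limit. The statistic was the ratio of 2 mean squares, that of the samples over that of probe set by sample, the second moderated over all genes with limma. Of 15 listed genes 0 passed at an adjusted p of 0.05, against 39 of 1766 genes, or 2.21%, on the whole array, and 0 of the 15 had an unadjusted p under 0.05, against 392 of 1766. Stx1a came nearest with a limma-moderated adjusted p of 0.276, its probe set 1448366_at standing at 8.16, 8.20, 8.34 and 8.20 in samples 11, 13, 15 and 17, highest in sample 15 like the top one. For Syt11 the adjusted p was 0.597, with a mean square between samples of 0.214 and an error mean square of 0.209, and for Sh3gl2 it was 0.606. In both, the 2 mean squares were about equal, which follows whenever 1 probe set moves while the others stay nearly level. Their mean square between samples thus comes mainly from the 1 probe set named above.

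The role groups differed little between samples. Averaged over detected genes, the deviation from a gene's own mean for the 35 presynaptic genes came to -0.028, -0.015, 0.022 and 0.021 in samples 11, 13, 15 and 17. Over all 6414 genes above the limit it was -0.050, -0.00075, 0.020 and 0.031. The vesicle proteins had the widest span, 0.10, with -0.054 in sample 11 and 0.050 in sample 17. That order depended on the probe sets taken: with the median over the probe sets of a gene, the vesicle proteins turned to 0.030, 0.037, -0.019 and -0.048 in samples 11, 13, 15 and 17 and the listed genes as a whole to 0.057, 0.054, -0.032 and -0.079, and endocytosis had the widest span, 0.56. The SNARE group spanned 0.052, or 0.032 without sample 13, the active zone 0.053, or 0.024 without sample 11, endocytosis 0.053 and the synaptotagmins 0.035, against 0.082 for all genes. Several cell type markers, of neurons and of other cells, moved by more, Ttr of choroid plexus most, by 2.19 above its mean in sample 13. The 5 CA1 markers deviated by -0.12, 0.070, 0.19 and -0.14 in samples 11, 13, 15 and 17. The 3 detected oligodendrocyte markers deviated by -0.155, 0.34, -0.052 and -0.13 in samples 11, 13, 15 and 17 and the 4 detected dentate granule cell markers by -0.044, -0.075, -0.089 and 0.21. Averaged over the 5 general neuronal markers the deviation was at most 0.019 in size in any sample, although Tubb3 alone stood at 8.65, 8.91, 8.90 and 8.83 in samples 11, 13, 15 and 17. Synpr was highest in sample 17, as were the dentate markers Dsp, C1ql2 and Plk5 but not Calb1, at 10.01, 9.90, 9.88 and 9.96 in samples 11, 13, 15 and 17, and the part of tissue composition in the Synpr values was not tested.

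**Figure D4:**
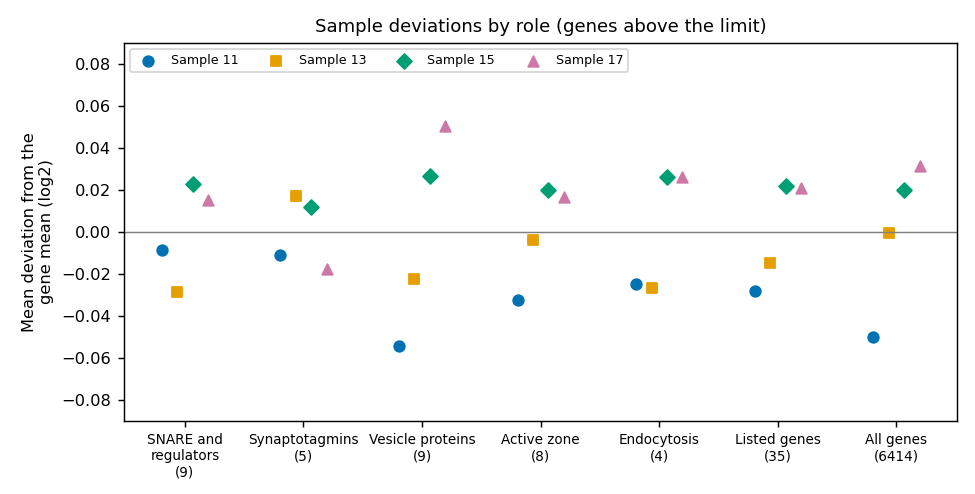
Mean deviation from the gene's own mean over the 4 samples, in log2 units, by role and sample, with the number of genes above the limit in brackets. Every group stays within 0.06 of 0, and the vesicle proteins have the widest span, from -0.054 in sample 11 to 0.050 in sample 17, with genes given by their top probe sets.

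Other genes of the same pathway gave a similar picture. Of 75 further presynaptic genes 71 had a probe set of their own, and 53 of these, or 74.6%, lay above the limit, against 35.3% of all genes. Their median SD was 0.064, against 0.054 for the 35 listed genes and 0.081 for all. These medians were not matched for level, with which the usual spread can change, so they do not show that presynaptic genes were steadier. Shared variation between probe sets passed in 0 of the 16 that could be tested, against 2.21% of all genes. Of the cell type markers it passed for Pou3f1 of CA1 (limma-moderated adjusted p 0.014), Gfap of astrocytes (0.0395) and Ttr (6.76e-05). The widest detected spreads by role were those of Stxbp6, a syntaxin-binding protein, at 9.68 ± 0.2, of Rph3a, rabphilin, a Rab3 effector, at 10.49 ± 0.16, and of Slc32a1, with an SD of 0.11. In the active zone group Apba1, Mint1, an adaptor that binds Munc18, had levels of 7.72, 7.97, 8.45 and 8.48 in samples 11, 13, 15 and 17, higher in samples 15 and 17. Ppfia2, a liprin scaffold, stood at 8.11, 7.84, 7.93 and 8.41 in samples 11, 13, 15 and 17, highest in sample 17. Bin1, amphiphysin 2, which is also made by oligodendrocytes, had levels of 9.29, 9.47, 9.24 and 8.77 in samples 11, 13, 15 and 17, highest in sample 13, where the oligodendrocyte markers were also highest. The next widest of each role were Dnajc5 at 10.15 ± 0.084, Syt17 at 9.41 ± 0.1, Sypl at 8.27 ± 0.084 and Cltb at 8.54 ± 0.13.

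The 18 further genes under the limit include relatives known mainly from other cells. Slc18a2 and Slc18a3, the vesicular transporters for monoamines and acetylcholine, whose neurons lie mainly outside the hippocampus, averaged 2.92 ± 0.13 and 3.12 ± 0.16. Cplx3, a complexin of retinal ribbon synapses, averaged 5.0 ± 0.22, and Snap23 and Syngr2, widespread relatives of neuronal genes, 5.17 ± 0.2 and 5.44 ± 0.12. Syt6, Syt9 and Syt10 averaged 3.88 ± 0.1, 4.57 ± 0.095 and 3.81 ± 0.11. The remaining 10, Snap29, Vamp7, Syt12, Syt16, Doc2a, Rab3d, Rims4, Ppfia1, Ston2 and Synj2, had levels between 5.04 for Snap29 and 6.86 for Vamp7.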

How the data were processed

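RNA of the left hippocampus was isolated for 4 samples (lipid tissue kit), DNase treated, amplified and biotin labelled, per the labels' protocols. The authors deposited log2 intensities for each probe set, made with RMA (background correction, a common distribution of arrays and summary of probes), per the submitters' processing notes; the sources used here give neither version nor settings. Column medians lay between 4.67 and 4.71. Of 104 listed probe sets, 39 have equal values in 2 or more samples.

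Symbols came from the array's probe table, where 34958 of 45101 probe sets have 1 symbol, 932 several and 9211 none, and were updated through Entrez identifiers in RefSeq (GRCm38.p6), which held 34754. One probe set that shares a symbol with Vamp1 was left out, as were 64 control probe sets. The tests used limma 3.58.1 in R 4.3.3 (lmFit, eBayes with trend and robust fit, squeezeVar) on all probe sets above the limit with Benjamini-Hochberg adjustment at 0.05, and were tried on simulated data. For the spread test an F statistic set the residual variance against the prior variance. Apart from those with planted differences, the simulated probe sets all had the same SD. Those runs thus do not show how the tests of spread and of shared variation fared on the real arrays. The members, lists and tests were chosen with earlier results of these data known. Named are all measured listed genes and, of the further presynaptic genes, the 2 of each role with the largest SD, any under the limit and any called. Alternatives covered the limit, the filter, the choice of probe set, normalization, the priors, a Gapdh covariate and each sample left out.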

Additional observations from a re-analysis of the deposited data

Results flagged for a closer look

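Among 50 values checked, those of the 40 top probe sets, of the probe sets above the limit with an SD above 0.3 and of the role group means, 2 had a sample far from the others. Sv2b, the vesicle glycoprotein, was alike in samples 11, 13 and 15 and higher in sample 17, and the gap made up the whole range, a ratio of 1.0, past Dixon's critical value for 4 samples. Unc13a, the priming factor, was alike in samples 11, 13 and 17 and higher in sample 15, with the same ratio of 1.0. Both ratios rest on equal deposited values in 3 samples, and the ranges were 1.05-fold for Sv2b and 1.06-fold for Unc13a. Chance flags about 1 in 20 groups of values, and 9 of the probe sets checked hold equal values.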

How the results depend on the processing

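The count of 35 genes above the limit was kept with a 90th percentile limit, with renewed quantile normalization, with median centring, without each sample in turn and with samples 11 and 13 alone, a setting chosen after the data were seen. In those settings 34.1% to 42.3% of all genes lay above the limit. The count was 34 with the highest background gene as limit, where Erc1 dropped out and 30.4% of all genes passed. Without the skin genes among the background genes, also chosen later, it was 37, which added Syn3 and Unc13c, and 51.7% of all genes passed. It was 28 when a gene was given by the median of its probe sets, where 21.7% of all genes passed. No listed probe set or gene passed either limma test in any of the settings run, with 0 calls each time. In the spread test no probe set of the whole array passed in any of them either. Its prior variance had 0.71 to 3.02 degrees of freedom over the settings, so that test had little power in each. For shared variation, 2 of 31 listed genes had an unadjusted p under 0.05 with no filter, against 820 of 9010 genes on the whole array. With the Gapdh covariate it was 1 of 15, against 542 of 1766, and in samples 11 and 13 it was 1 of 18, against 375 of 1944. Over all genes the test of shared variation gave 39 calls, 179 with the covariate, 90 with median centring, 20 without the skin genes, 13 with no filter, 12 with samples 11 and 13 alone and 3 to 10 with a sample left out. The span between samples became 0.099 for the SNARE group, 0.057 for synaptotagmins and 0.56 for endocytosis with the median over probe sets, where the vesicle proteins (0.085) were no longer widest and their order turned, highest in sample 13 and lowest in sample 17. The listed genes as a whole turned likewise, highest in sample 11. With that setting Dnm1 and Sh3gl2 take in the probe sets that were low in sample 17. With genes under the limit included, the synaptotagmin span was 0.14 and the vesicle span 0.084. The active zone span was 0.020 after quantile normalization and 0.089 after median centring, where endocytosis had 0.091. Leaving out a sample gave 0.024 to 0.053 for the active zone, the lowest without sample 11, and 0.032 to 0.052 for the SNARE group, the lowest without sample 13. In samples 11 and 13 alone the span was 0.020 for the SNARE group, 0.032 for vesicle proteins and 0.0016 for endocytosis, with fewer samples to differ. The cause was not tested for the shifts with normalization. The level of 30 of 40 genes moved by more than its SD with the median over probe sets, and that of 1 with each normalization. The SD threshold of 0.5, also chosen later, left 3 listed probe sets in place of 4. No paired analysis was possible because the samples form 1 group.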
